A study of Mus musculus with 13 samples.

Results

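Collagen genes encode the chains of the collagens, the proteins that build most of the fibres and sheets of the extracellular matrix. They were taken here as every gene of the deposited table whose symbol is Col, a type number, the letter a and a chain number, which gave 43 of 25965 genes. By type, 11 were fibrillar (types I, II, III, V, XI, XXIV and XXVII), 6 were basement membrane chains (type IV) and 26 belonged to other types. The groups compared were 3 sets of differentiating female mouse embryonic stem cells (mESCs), each followed on days 4, 5, 6 and 7 with 1 library a day. Nons cells carried a nonsilencing control hairpin, and Smarcc1.6 and Smarcc1.7 cells carried 1 of 2 different short hairpin RNAs against Smarcc1, which encodes a core subunit of the BAF chromatin remodelling complex. A further library, Day0, came from undifferentiated cells and had no matched control.

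All 13 libraries came from F1 cells with an FVB/NJ mother and a CAST/EiJ father, so that both alleles of each gene contribute to the values. The cells had been expanded in 2i medium, were weaned into medium with fetal bovine serum (DME HiHi) and grew on plates coated with gelatin, itself made from collagen. Retrovirus with the hairpins was added on day 2 and puromycin selection began on day 3, so that the control also passed through infection and selection. With 1 library for each group and day, the days served as the replicates where groups were compared within days. The p-values measure the spread between these libraries. Where both hairpins were pooled as knockdown, the 2 hairpin libraries of a day counted singly against the same Nons library. The p-values for knockdown can therefore be too small. Whether the days of 1 group came from separate cultures is not given in the sources used here.

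A collagen molecule is a triple helix of 3 chains, which can be the same or different. Types I, II, III, V and XI assemble into banded fibrils, type I being the main collagen of bone, skin and tendon and type II that of cartilage, while types V and XI sit inside these fibrils. Type IV forms the network of basement membranes, the thin sheets under epithelia, and is made early by the embryo. Type VI forms beaded filaments, the FACIT collagens (fibril-associated collagens with interrupted triple helices, such as types IX, XII, XVI and XXII) decorate fibrils, and types XV and XVIII are basement membrane zone collagens that carry sugar chains. Chains are hydroxylated and folded in the endoplasmic reticulum, exported, trimmed and then cross-linked outside the cell.

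The smallest library (day 5 of Smarcc1.7) held 13993440 mapped reads and the largest (day 4 of Smarcc1.6) 63548092. Levels are given as log2 CPM, the log2 of reads scaled to a common library size, and 3 reads stand at -2.22 in the smallest library and at -4.40 in the largest. In Day0 and the 3 libraries of day 6, 85.3% to 86.5% of mapped reads fell in genes, against 91.6% to 92.6% in the other 9. Differences between groups were therefore taken within days. Smarcc1 itself was lower than in the Nons library of the same day in 8 of 8 comparisons, by 1.19 ± 0.48 (SD, n = 4 days) on the log2 scale with Smarcc1.6 and by 0.93 ± 0.37 with Smarcc1.7. All 7 marker genes of undifferentiated mESCs were measured in every library, and their summed level was 12.23 (log2 CPM) at Day0 and 10.09 to 11.24 on days 4 to 7. In bulk libraries fewer cells making a transcript and less transcript per cell cannot be told apart.

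Collagen genes covered a wide range of levels (the map of all 43 genes). Of the 43, 24 averaged 0 or more on the log2 CPM scale from day 4 to day 7 and were tested, 9 of 11 fibrillar, 3 of 6 basement membrane and 12 of 26 others. Per length, the most abundant was Col18a1, whose protein releases the fragment endostatin, with a mean of 6.14 (log2 CPM per kilobase of exon) over the 12 libraries of days 4 to 7. The type IV chains Col4a1 and Col4a2 followed with 3.25 and 2.02, then Col9a2 with 1.42 and the type V chain Col5a1 with 1.40. Col9a2 and Col5a1 lay closer to each other than the spread of either over the days. Col18a1 also had the narrowest range of the 24 tested genes. Its log2 CPM was 7.75 at Day0, 8.69 to 9.16 in Nons, 8.67 to 9.17 with Smarcc1.6 and 8.76 to 9.36 with Smarcc1.7, and all 3 groups overlapped.

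**Figure D1:**
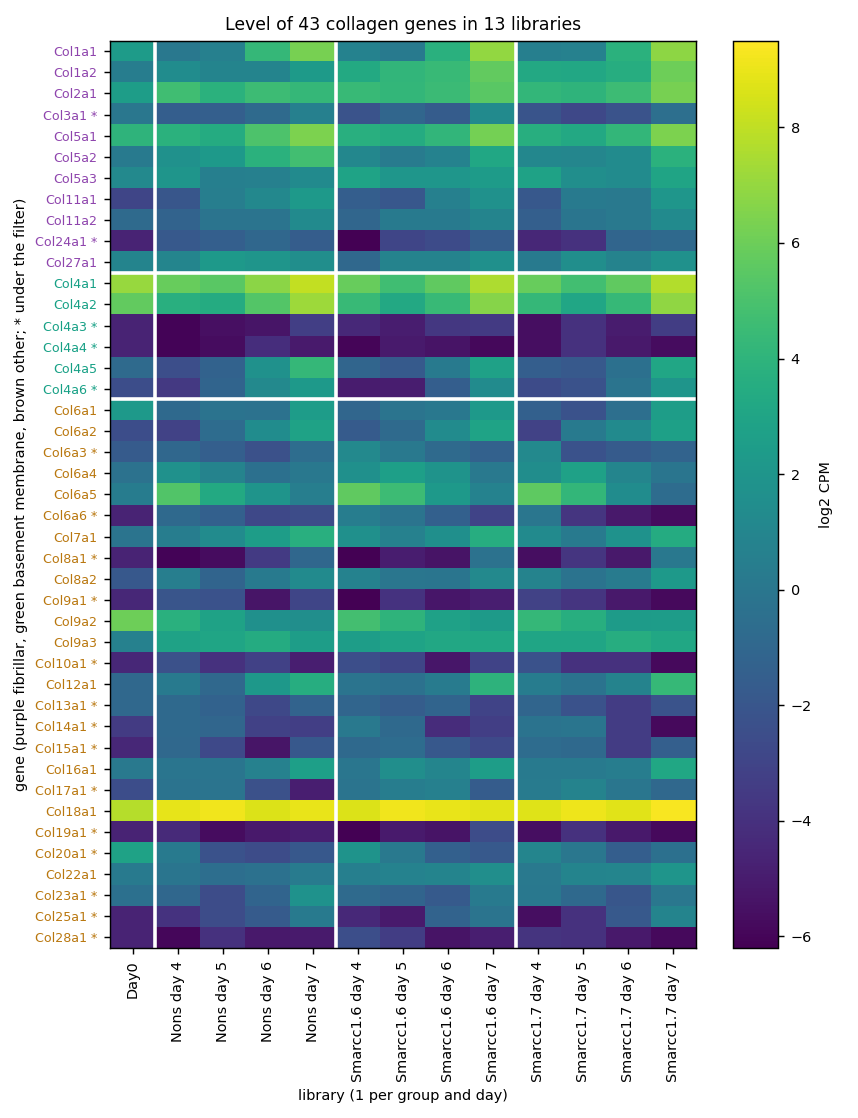
Level (log2 CPM, colour scale) of the 43 collagen genes (vertical axis, by type) in the 13 libraries (horizontal axis, 1 library per group and day); an asterisk marks the 19 genes under the filter. Col18a1 was high in every library, whereas Col1a1, Col4a1, Col4a2 and Col4a5 were highest on day 7 in all 3 groups.

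Next, knockdown was compared with Nons to ask which collagen genes differed when Smarcc1 was depleted. Of the 24 tested genes, 4 were higher (Col1a2, Col5a3, Col9a2 and Col22a1) and 2 were lower (Col5a2 and Col4a1) in knockdown at an adjusted p under 0.05 (limma, day as a factor, Benjamini-Hochberg over all 13406 genes tested). Over all genes the same threshold called 6.88% higher and 4.77% lower. Col22a1 reached the filter only through the knockdown libraries. The median difference was 0.08 (log2) for the 9 fibrillar genes, -0.55 for the 3 basement membrane genes and 0.25 for the 12 others, beside -0.01 over all genes tested. Higher in 8 of 8 same-day comparisons were 4 of the 24, beside 7.89% of all genes, and lower in 8 of 8 was 1, beside 7.10%. Without day in the limma model, 0 of the 24 were called for knockdown, beside 4 of all 13406 genes. Of the 24, 3 then had an unadjusted p under 0.05. From Smarcc1.6 and Nons alone 2 were called (Col1a2 and Col9a2), beside 57 of all genes. From Smarcc1.7 and Nons alone 0 were called, beside 0 of all genes, with 6 of the 24 at an unadjusted p under 0.05. Without the Nons library of day 4 the count was 10, 5 in each direction, beside 2003 of all genes.

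**Figure D2:**
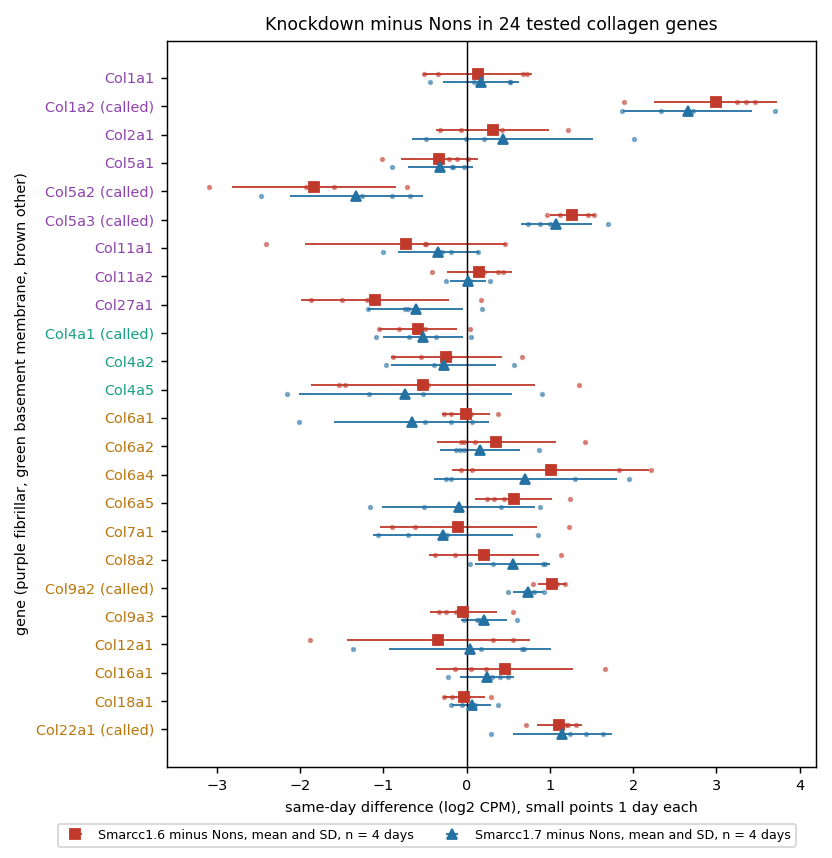
Difference from the Nons library of the same day (log2 CPM, horizontal axis) for the 24 tested collagen genes (vertical axis). Small points are single days, large symbols with bars are the mean and SD over 4 days for each hairpin. Col1a2 sits farthest to the right, between 1.87 and 3.70 on every day with either hairpin, and Col5a2 farthest to the left.

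The largest difference was in Col1a2, the gene for the second chain of type I collagen (chromosome 6, 4504814 to 4541543 in mm10). Its log2 CPM was 0.48 at Day0 and 1.43, 0.89, 0.88 and 2.36 in Nons on days 4 to 7. The Smarcc1.6 libraries measured 3.33, 4.14, 4.35 and 5.71, the Smarcc1.7 libraries 3.30, 3.23, 3.60 and 6.05. All 8 knockdown libraries lay above all 4 Nons libraries. Knockdown exceeded Nons by 2.82 ± 0.25 (SE) on the log2 scale, 7.07-fold (limma adjusted p = 0.000923), and the difference stayed between 2.59 and 3.14 in the 16 fits that each left out a day or a library. Behind these values stood 65 to 3375 reads a library. The nearest other genes on that stretch of chromosome did not pass the threshold, with differences of -0.01 for Bet1, 0.00 for Casd1 and 0.17 for Sgce.

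Its partner Col1a1 (chromosome 11, 94936224 to 94953042), which supplies the other chain of type I collagen, differed by 0.15 ± 0.18 (SE; limma adjusted p = 0.615). In Nons it measured 0.06, 0.63, 4.27 and 6.28 on days 4 to 7, with Smarcc1.6 0.78, 0.29, 3.76 and 6.96, and with Smarcc1.7 0.58, 0.72, 3.83 and 6.81. The 3 groups overlapped and followed the same days. Col2a1, the type II chain, differed by 0.37 ± 0.25 (adjusted p = 0.370), with levels of 3.80 to 4.69 in Nons and of 4.01 to 6.30 in knockdown, the 2 highest being the knockdown libraries of day 7. Col11a1, a type XI chain, differed by -0.54 ± 0.38 (adjusted p = 0.386).

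The 3 chains of type V, the minor collagen inside type I fibrils, went different ways. Col5a2 (chromosome 1, 45374321 to 45503282) measured 1.76, 2.25, 3.83 and 4.75 in Nons on days 4 to 7. With Smarcc1.6 it measured 1.04, 0.33, 0.74 and 3.15, and with Smarcc1.7 1.08, 1.00, 1.37 and 3.85. Both hairpins were below Nons on every day and furthest below on day 6, by 3.10 and 2.46 on the log2 scale, although the range over the days overlapped. The difference was -1.58 ± 0.29 (SE; limma adjusted p = 0.00700), or 0.335 times the Nons level.

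Col5a3 (chromosome 9, 20770050 to 20815067) went up where Col5a2 went down. It measured 1.96, 0.55, 0.62 and 1.30 in Nons, 2.93, 2.08, 2.08 and 2.42 with Smarcc1.6, and 2.84, 1.55, 1.35 and 2.99 with Smarcc1.7. It was above Nons in 8 of 8 same-day comparisons, by 1.17 ± 0.18 (SE) on the log2 scale, 2.25-fold (adjusted p = 0.00434). Col5a1, the chain found in most type V molecules, differed by -0.32 ± 0.13 (adjusted p = 0.120) and was lower in 7 of 8 comparisons.

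**Figure D3:**
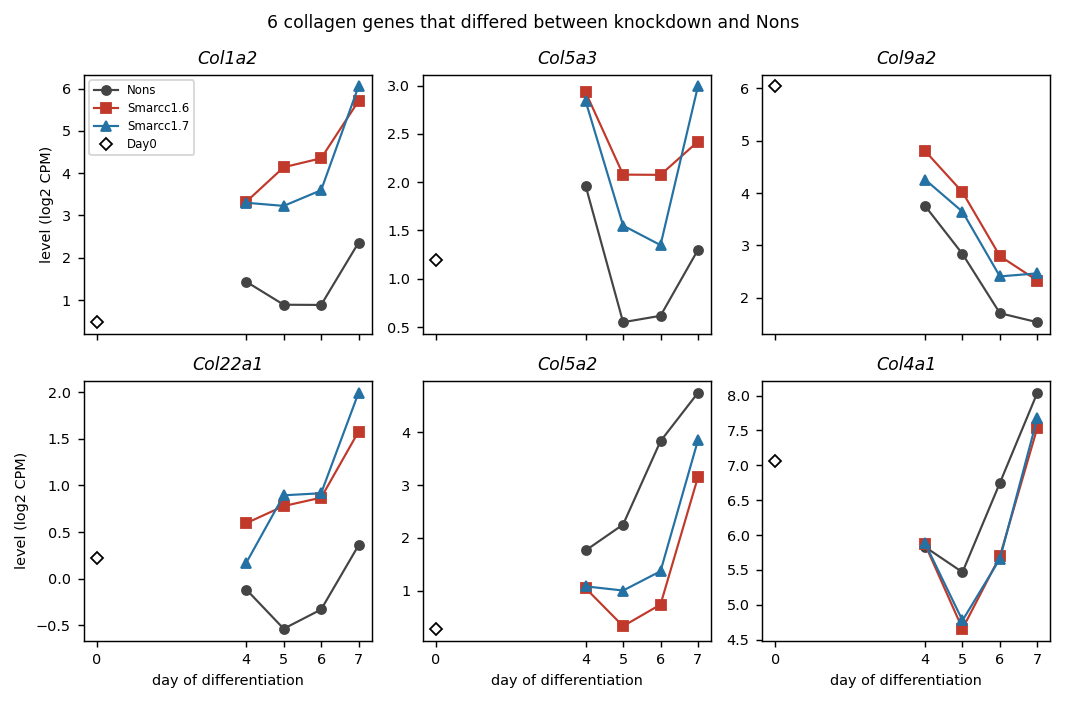
Level (log2 CPM, vertical axes, each panel on its own scale) against day of differentiation (horizontal axis) for the 6 collagen genes called in knockdown against Nons; 1 point per library, and the open diamond is Day0. Both hairpins lie above Nons on every day for Col1a2, Col5a3, Col9a2 and Col22a1 and below it for Col5a2, while for Col4a1 they lie below it from day 5 on.

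Among basement membrane chains, Col4a1 (chromosome 8, 11198423 to 11312826) was lower in knockdown. It measured 5.83, 5.47, 6.75 and 8.04 in Nons on days 4 to 7, 5.86, 4.66, 5.69 and 7.54 with Smarcc1.6, and 5.88, 4.77, 5.66 and 7.68 with Smarcc1.7. On day 4 the 3 libraries were nearly level, and from day 5 on both hairpins lay below Nons. The difference was -0.55 ± 0.13 (SE; limma adjusted p = 0.0206). It was -0.49 without day 5 and -0.38 without day 6, and neither was called (adjusted p = 0.136 and 0.133), nor was it without the Nons library of day 5 (adjusted p = 0.0988) or of day 6 (0.0913).

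For Col4a2 and the X-linked Col4a5 both hairpins also lay below Nons from day 5 on, but on day 4 both genes were higher with the hairpins. Col4a2 differed from Nons by 0.66, -0.20, -0.88 and -0.55 on days 4 to 7 with Smarcc1.6 and by 0.57, -0.39, -0.96 and -0.31 with Smarcc1.7. Over the 4 days this gave -0.26 ± 0.18 (adjusted p = 0.374). Col4a5 differed by 1.36, -0.46, -1.54 and -1.45 with Smarcc1.6 and by 0.90, -0.52, -2.15 and -1.17 with Smarcc1.7, or -0.63 ± 0.39 in all (adjusted p = 0.319). Without day 4, the day that ran the other way, both passed the threshold, with -0.55 (adjusted p = 0.0176) for Col4a2 and -1.22 (0.0223) for Col4a5. Without day 6, where both lay furthest below Nons, the differences were -0.04 (limma adjusted p = 0.941) and -0.23 (0.82). Neither gene was called without day 5 or without day 7. The interaction of knockdown and day was not called for either (adjusted p = 1 and 0.980).

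Of the 9 FACIT genes 5 were tested, and 2 of these were higher in knockdown. Col9a2 (chromosome 4, 121039385 to 121055322), a chain of the type IX collagen that coats cartilage fibrils, measured 3.76, 2.84, 1.71 and 1.54 in Nons on days 4 to 7. With Smarcc1.6 it measured 4.80, 4.02, 2.80 and 2.33, and with Smarcc1.7 4.26, 3.64, 2.41 and 2.47. It was highest at Day0 (6.04) and fell in all 3 groups, and at each day both hairpins kept a higher level than Nons. The difference was 0.88 ± 0.13 (SE), 1.84-fold (limma adjusted p = 0.00349), with the smallest spread over the days of the 6 genes called (SD 0.16 with Smarcc1.6 and 0.18 with Smarcc1.7, n = 4 days). Its type IX partner Col9a3 differed by 0.09 ± 0.14 (adjusted p = 0.733). Col9a3 shares 234 bases with Tcfl5 on the other strand, and whether counting used strand is not given in the sources used here.

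Col22a1 (chromosome 15, 71795795 to 72034227), known from tissue junctions of muscle and tendon, was a gene of low level with 26 to 202 reads a library. It measured -0.12, -0.54, -0.33 and 0.36 in Nons, 0.60, 0.78, 0.87 and 1.58 with Smarcc1.6, and 0.17, 0.89, 0.92 and 1.99 with Smarcc1.7. The hairpin libraries were above Nons on every day, with a difference of 1.13 ± 0.20 (SE), 2.19-fold (adjusted p = 0.00690). Its mean over days 4 to 7 was -0.16 in Nons, under the filter, and 0.95 and 0.99 with Smarcc1.6 and Smarcc1.7. It was thus tested only through the knockdown libraries. With no filter it was also called (limma adjusted p = 0.00937). This call was lost without day 5 (adjusted p = 0.0544) and without day 6 (0.0608), at differences of 1.05 and 1.10.

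Promoter sequences are shown for the called genes that rose in knockdown, Col1a2, Col5a3 and Col9a2, so that what they share can be seen; Col22a1 has no entry in the table used. Each is the 250 bases before the transcription start in RefSeq (GRCm38.p6, the mm10 assembly), read 5′ to 3′ on the strand of the gene, and for Col1a2 and Col9a2 that start lies inside the gene as deposited. The windows are chr6:4505368-4505617 (plus strand) for Col1a2, chr9:20815068-20815317 (minus strand) for Col5a3 and chr4:121039316-121039565 (plus strand) for Col9a2. Capitals mark the GC box GGGCGG and the CCAAT box, each on either strand.
Col1a2: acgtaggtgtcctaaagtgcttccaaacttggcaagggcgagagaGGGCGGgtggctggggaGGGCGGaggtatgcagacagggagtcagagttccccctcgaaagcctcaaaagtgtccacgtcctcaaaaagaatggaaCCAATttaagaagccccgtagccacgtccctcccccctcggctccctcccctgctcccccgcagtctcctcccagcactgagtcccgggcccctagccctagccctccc
Col5a3: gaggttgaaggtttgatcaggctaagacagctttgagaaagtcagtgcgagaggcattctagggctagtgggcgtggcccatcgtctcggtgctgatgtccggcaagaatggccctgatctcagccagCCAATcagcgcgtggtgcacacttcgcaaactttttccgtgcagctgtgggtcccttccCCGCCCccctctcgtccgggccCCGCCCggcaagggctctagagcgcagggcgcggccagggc
Col9a2: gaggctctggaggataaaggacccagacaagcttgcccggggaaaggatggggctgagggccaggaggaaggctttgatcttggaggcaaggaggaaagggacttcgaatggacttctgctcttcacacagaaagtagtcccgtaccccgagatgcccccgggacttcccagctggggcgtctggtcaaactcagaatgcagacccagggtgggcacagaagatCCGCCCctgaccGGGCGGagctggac

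Each of the 3 windows holds 2 GC boxes, Col1a2 and Col5a3 hold 1 CCAAT box each, and none holds the TATA box letters TATAAA. Of the 43 collagen genes 35 had promoter entries, 38 windows in all. A GC box was found in 57.9% of these and in 32.7% of all 32851 promoter windows of that length, a CCAAT box in 34.2% and 33.8%, and TATAAA in 13.2% and 12.4%. These are matches of letters, given as a description.

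Type VI chains did not pass the threshold for knockdown. Col6a1 differed by -0.33 ± 0.35 (adjusted p = 0.581) and Col6a2 by 0.26 ± 0.29 (0.615). Col6a4 and Col6a5, neighbours on chromosome 9, differed by 0.86 ± 0.34 (adjusted p = 0.119) and 0.23 ± 0.28 (0.637). Col18a1, the most abundant collagen transcript per length, differed by 0.01 ± 0.10 (adjusted p = 0.950). Col18a1 shares 8825 bases with Slc19a1 on the other strand, and Col4a1 shares 22 with Col4a2, so that reads there may count for either gene.

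Each hairpin was also set against Nons in a model of 3 groups, in which both comparisons share the 4 Nons libraries. Smarcc1.6 called 4 collagen genes higher and 2 lower, beside 5.59% and 3.71% of all genes, and Smarcc1.7 called 4 higher and 0 lower (2 lower at an unadjusted p under 0.05), beside 1.69% and 0.768%. The mean differences from Nons for Smarcc1.6 and Smarcc1.7 were 2.99 and 2.65 for Col1a2, 1.27 and 1.08 for Col5a3, 1.03 and 0.74 for Col9a2, and 1.11 and 1.15 for Col22a1. For Col5a2 they were -1.83 (limma adjusted p = 0.00725) and -1.32 (0.0517), and for Col4a1 -0.58 (0.0435) and -0.52 (0.0986). The count for Smarcc1.6 was 2 without day 5 and 3 without day 6, beside 178 and 202 of all genes (1247 with every library). For Smarcc1.7 the count also changed with single libraries. It was 1 without any 1 of the Smarcc1.7 libraries or without the Nons library of day 5 or day 6. Without day 5 or day 6 as a whole it was 0 (6 and 5 at an unadjusted p under 0.05). It was 2 without day 7 or the Smarcc1.6 library of day 5, and 8 without the Nons library of day 4. Over all genes the Smarcc1.7 count moved likewise, from 329 to between 6 and 69 without 1 of the Smarcc1.7 libraries. That count was 1 without day 5 or day 6 as a whole and 1052 without the Nons library of day 4.

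Tested directly, no collagen gene passed the threshold between the hairpins, or for a different change per day in knockdown and Nons. In limma 0 of 24 were called between the hairpins, with 2 at an unadjusted p under 0.05 (0 called and 1 unadjusted with voom), and over all genes the share called was 0% (530 genes at an unadjusted p under 0.05). For the interaction of knockdown and day the count was 0 of 24, with 1 at an unadjusted p under 0.05 (Col2a1; voom likewise gave 0 and 1), and the share over all genes was again 0% (745 genes at an unadjusted p under 0.05).

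Chains of 1 type often assemble together, though not every pair shares a molecule. The levels of the 15 pairs of tested chains of the same type were compared within each library. This comparison was added after the values of the single genes had been seen, and each difference was tested by taking 1 of the 3 libraries of each day as Nons in all 81 ways (exact permutation test, two-sided, smallest p 0.0123). The level of Col1a1 minus that of Col1a2 was 2.67 lower in knockdown on the log2 scale, with 8 of 8 comparisons in that direction (exact permutation p = 0.0123; 0.0463 after Benjamini-Hochberg adjustment over the 15 pairs). On day 7 it was 3.93 in Nons, 1.25 with Smarcc1.6 and 0.76 with Smarcc1.7. On day 5 it was -0.26, -3.85 and -2.51, so that reads of Col1a2 outnumbered those of Col1a1 by more in knockdown than in Nons. These are ratios of reads of genes of different length, and only their differences between libraries are read. Col1a2 had already been higher in 8 of 8 comparisons, by 2.82 on average, and Col1a1 differed by 0.15. The type I pair therefore mostly restates the Col1a2 difference with its sign turned, and is no separate result.

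Within type V the 3 pairs each reached the same smallest p (exact permutation, adjusted 0.0463). They are not independent, since each difference follows from the others. Col5a2 and Col5a3 had also already been lower and higher in 8 of 8 comparisons. The adjusted p depends on the 4 pairs tied at the smallest p, and with fewer ties it would be larger. Col5a2 minus Col5a3 was 2.75 lower in knockdown, and it went from -0.20 to 3.45 between days 4 and 7 in Nons, from -1.89 to 0.73 with Smarcc1.6 and from -1.76 to 0.85 with Smarcc1.7. Col5a1 minus Col5a2 was higher by 1.26 and Col5a1 minus Col5a3 lower by 1.49 in knockdown. Of the other 11 pairs none passed after adjustment. Among them were Col4a1 minus Col4a2 with -0.29 (exact permutation p = 0.0247, adjusted 0.0741) and Col9a2 minus Col9a3 with 0.79 (exact permutation p = 0.0370, adjusted 0.0926).

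**Figure D4:**
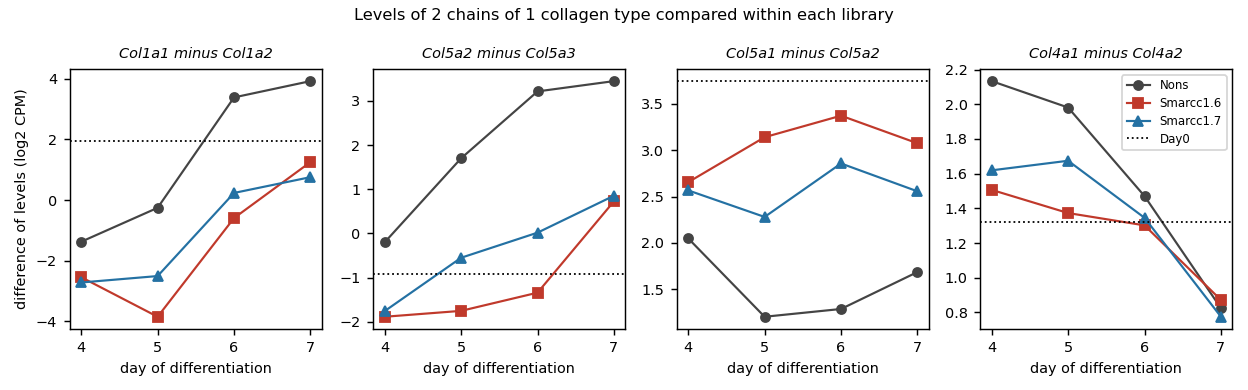
Level of 1 chain minus that of another of the same collagen type within each library (log2 CPM, vertical axes, each panel on its own scale) against day (horizontal axis), 1 point per library; the dotted line is Day0. For Col1a1 minus Col1a2 and Col5a2 minus Col5a3 both hairpins lie below Nons on all 4 days, and for Col4a1 minus Col4a2 the 3 groups meet on day 7.

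From day 4 to day 7 most of the tested collagen transcripts rose. Of the 24 tested genes 16 rose and 3 fell per day (limma slope, adjusted p under 0.05), beside 34.9% rising and 25.6% falling over all genes. In the slope fits the 3 libraries of a day counted singly, so that whatever a day shared entered as change. With only 4 days, the p-values of slopes can be too small. Col4a5, Col6a1, Col6a2, Col11a1 and Col11a2, all among those that rose, reached the filter only through the libraries of day 7. Their mean levels over days 4 to 7 were 0.01 to 0.29 (log2 CPM). The median slope of the 24 was 0.70 (log2 per day), beside 0.04 over all genes tested. By class, 7 of 9 fibrillar and 3 of 3 basement membrane genes rose and none of these fell, and of the 12 others 6 rose and 3 fell. Without day 7, 3 of 9 fibrillar genes (Col1a1, Col11a1 and Col11a2) and 1 of 3 basement membrane genes (Col4a5) rose, 1 fibrillar gene fell (Col5a3), and of the others 2 rose and 2 fell, beside 36.4% rising and 23.4% falling over all genes.

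The largest rise was that of Col1a1, by 2.21 ± 0.23 (SE) per day on the log2 scale (limma adjusted p = 2.16e-05). Col6a2 rose by 1.82 ± 0.13 per day, from -3.09 on day 4 to 2.83 on day 7 in Nons, from -1.67 to 2.94 with Smarcc1.6 and from -3.12 to 2.75 with Smarcc1.7. Col4a5 rose by 1.73 ± 0.26 per day, with levels of -2.44, -1.29, 1.74 and 4.26 in Nons. Col12a1, a FACIT chain of fibrils in dense tissue, rose by 1.30 ± 0.27 per day and Col11a1 by 1.25 ± 0.16. All 5 were highest on day 7 in each of the 3 groups. Among them Col6a2, Col4a5 and Col11a1 were tested only because of their day 7 levels.

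**Figure D5:**
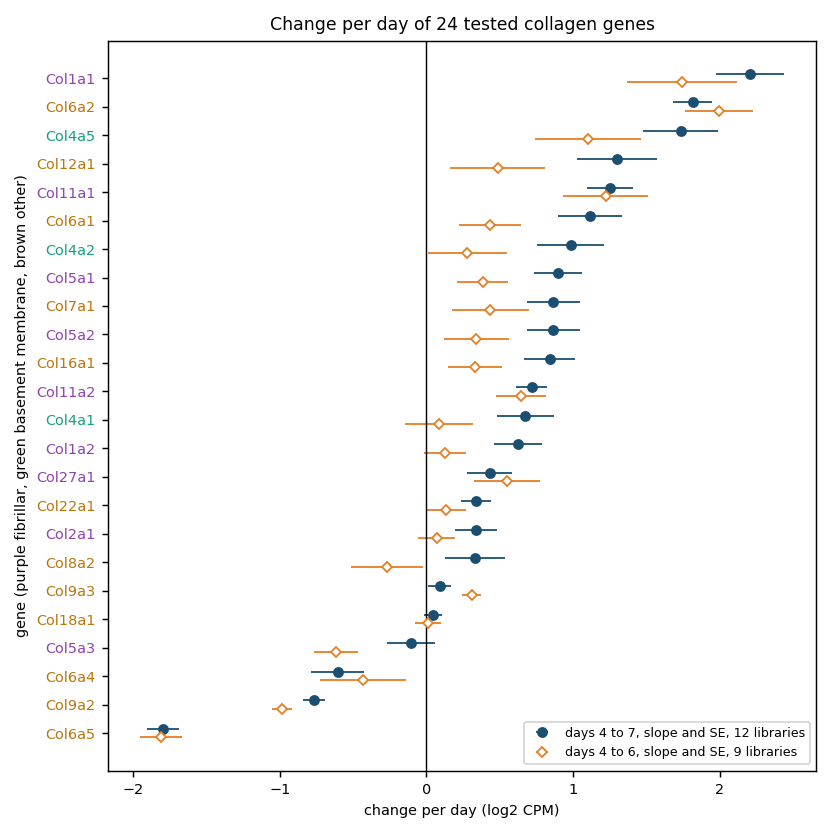
Slope with SE (change per day, log2 CPM, horizontal axis) of the 24 tested collagen genes (vertical axis), fitted over days 4 to 7 (filled circles) and over days 4 to 6 (open diamonds). The slopes of Col6a5, Col6a2 and Col11a1 are close in both fits, whereas without day 7 that of Col4a1 is 0.09, that of Col4a2 0.28 and that of Col12a1 0.48.

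Much of the rise lay between days 5 and 7, and both days belong to the 9 libraries with alike shares of reads in genes. By at least 1 log2 unit in 3 of 3 groups, 13 of the 24 were higher on day 7 than on day 5, beside 10.0% of all genes, and 2 were lower (Col6a5 and Col9a2), beside 5.86%. The 13 include Col4a5, Col6a1, Col6a2 and Col11a1, which reached the filter only through day 7. The increase from day 5 to day 7 in Nons, Smarcc1.6 and Smarcc1.7 was 5.65, 6.67 and 6.09 for Col1a1, 2.57, 2.88 and 2.90 for Col4a1, and 2.49, 2.82 and 2.84 for Col5a2. Without day 7 only 9 of 24 slopes were called, 6 rising and 3 falling (Col6a5, Col9a2 and Col5a3). Col5a3, not called over all 4 days, then had a slope of -0.61 per day (limma adjusted p = 0.00981). Among genes that then lost the call were Col4a1 (0.09 per day, adjusted p = 0.759), Col4a2 (0.28, 0.399) and Col12a1 (0.48, 0.226).

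Day0 and the Nons library of day 6 belong to the same set by share of reads in genes, with 1 library each and so no test. Day0 came before infection and selection, so that these and differentiation cannot be told apart in this step. By at least 1 log2 unit, 13 of the 24 were higher in the Nons library of day 6, beside 21.2% of all genes, and 2 were lower (Col6a1 and Col9a2), beside 11.8%. Col2a1 went from 2.57 to 4.59, Col1a1 from 2.44 to 4.27, Col5a2 from 0.28 to 3.83 and Col11a1 from -2.89, the level of 3 reads, to 1.15. Col9a2 went the other way, from 6.04 to 1.71, and Col6a1 from 2.28 to -0.28. Of the 43 genes 8 had no read at Day0, which allows up to 3 reads or a log2 CPM of -2.89.

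The 3 that fell over days 4 to 7 were Col6a5, Col9a2 and Col6a4. Col6a5, a type VI chain, measured 0.38 at Day0 and 5.22, 3.33, 1.95 and 0.54 in Nons on days 4 to 7. With Smarcc1.6 it measured 5.66, 4.57, 2.27 and 0.78, and with Smarcc1.7 5.63, 4.21, 1.44 and -0.62. It was thus far above Day0 on day 4 and back near it on day 7 in all 3 groups, a slope of -1.80 ± 0.11 per day (adjusted p = 1.09e-06). Col9a2 fell by 0.77 ± 0.08 per day and Col6a4 by 0.61 ± 0.18 (adjusted p = 0.0137), and the latter lost its call without day 7 (adjusted p = 0.237).

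The genes that modify, export, cross-link, bind or degrade collagen were counted from lists of 60 genes, 45 of them tested. In knockdown 2 were higher and 6 lower, 4.44% and 13.3% of the 45 beside 6.88% and 4.77% of all genes. Adamts14, a protease that trims fibrillar collagen precursors, was higher by 1.34 ± 0.17 (SE; limma adjusted p = 0.00186), with 3.77, 2.18, 0.70 and -0.31 in Nons and 4.57, 3.91, 2.52 and 1.13 with Smarcc1.6. Mmp9, a gelatinase, was higher by 0.84 ± 0.13 and Mmp14, a membrane-bound collagenase, lower by 0.72 ± 0.14. Serpinh1, the collagen chaperone of the endoplasmic reticulum, was lower by 0.51 ± 0.12 (adjusted p = 0.0206).

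Of the 9 partners of type IV collagen in basement membranes, the linker Nid2 (-0.52 ± 0.13) and the proteoglycan Agrn (-0.59 ± 0.10) were lower in 8 of 8 comparisons, and the other 7 (laminin chains, Nid1, Hspg2 and Sparc) were not called. Leprel1, a proline hydroxylase of collagen, and the cross-linking enzyme Loxl3 were lower by 1.15 and 0.32 at adjusted p of 0.0483 and 0.0475. When each day and each library was left out in turn, the calls of Adamts14 and Mmp9 held in 16 of 16 fits, that of Agrn in 15, those of Serpinh1 and Mmp14 in 12, that of Nid2 in 9, and those of Leprel1 and Loxl3 in 4 and 3. Over time 30 of the 45 rose and 3 fell (66.7% and 6.67%, beside 34.9% and 25.6% of all genes), and without day 7 22 rose and 8 fell (48.9% and 17.8%, beside 36.4% and 23.4%). The largest slopes were those of the cross-linking enzyme Loxl2 (1.99 ± 0.11 per day), the protease inhibitor Timp2 (1.91 ± 0.08) and Bmp1 (1.48 ± 0.17), which trims procollagen.

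Markers of other cells were counted in the same fits, in which 6.88% of all genes were higher and 4.77% lower in knockdown. Of 7 undifferentiated mESC markers 5 were higher in knockdown and none lower (Zfp42 by 1.11, Esrrb by 1.00, for example). Of 5 tested fibroblast and mesenchyme markers 1 was higher and 1 lower, and of 6 tested endoderm markers 1 was higher and 1 lower. None of the 4 tested smooth muscle markers was called for knockdown, and all 4 rose per day, with or without day 7, beside 34.9% of all genes over days 4 to 7. Of the 3 tested cartilage markers Acan and Matn1 were higher, while Sox9 was under the filter. Of the 3 tested endothelial markers Pecam1, which mESCs also express, was higher. Summed, the cartilage markers lay at 2.76 to 3.32 (log2 CPM) in Nons, 3.61 to 4.09 with Smarcc1.6 and 3.32 to 3.81 with Smarcc1.7, and the fibroblast markers at 3.90 to 5.20, 4.01 to 4.95 and 3.95 to 5.19. The endoderm markers summed to 4.82 to 6.29 in Nons, 4.56 to 5.90 with Smarcc1.6 and 4.61 to 5.99 with Smarcc1.7, the smooth muscle markers to 2.94 to 9.91, 2.81 to 10.27 and 2.77 to 10.19, and the endothelial markers to 4.00 to 5.78, 3.99 to 6.55 and 3.87 to 6.19. No marker of the 6 lists was without reads in all 12 libraries. The part of such cells in the collagen differences was not tested.

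The 19 collagen genes under the filter were 2 fibrillar, 3 basement membrane and 14 others, and only 4 of them had at least 3 reads in all 12 libraries. All 4 transmembrane collagens (Col13a1, Col17a1, Col23a1 and Col25a1) were among them. Col3a1, the type III chain, measured -1.51 to 0.63 in Nons and -2.81 to 1.33 in knockdown. The X-linked Col4a6 measured -3.58, -1.14, 1.17 and 2.30 in Nons, -4.99, -4.92, -1.52 and 1.39 with Smarcc1.6, and -2.64, -2.22, -0.13 and 2.00 with Smarcc1.7. Col6a3 lay between -2.33 and -0.57 in Nons and between -2.22 and 1.21 in knockdown. Col4a4 had under 3 reads in all 13 libraries.

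Among these low genes 2 passed the threshold for knockdown when no filter was applied. Col17a1, a transmembrane collagen of epithelial anchoring, measured -0.20, -0.14, -2.33 and -4.89 in Nons, -0.13, 0.44, 0.64 and -1.63 with Smarcc1.6, and 0.34, 0.84, -0.04 and -0.91 with Smarcc1.7. It differed by 1.83 ± 0.47 (limma adjusted p = 0.0271), and the Nons library of day 7 held 1 read. Col20a1 differed by 1.34 ± 0.38 (adjusted p = 0.0462) and had 2.83 at Day0. Both were picked out after their values had been seen.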

How the data were processed

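RNA-seq was performed on 13 libraries. Per the labels and the study's methods, TruSeq libraries were sequenced as paired ends on a NextSeq500, trimmed with trim_galore and aligned with tophat or hisat2 (the submitters' processing notes list TopHat2 2.0.12) to mm10 masked at FVB/NJ and CAST/EiJ variants. The annotation release and strand setting are not given in the sources used here. The deposited values are log2 CPM per gene, made by the authors in Seqmonk, with 0 reads written as 0.9 reads. Read numbers were recovered from these steps (100% of low values whole within 0.01 reads). Floors of 3 reads cover counting error only.

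The 13406 genes that averaged 0 or more (log2 CPM) in the 12 differentiating libraries were tested with limma 3.58.1 in R 4.3.3 (lmFit, eBayes with trend), with no further pseudocount, and p-values were adjusted by Benjamini-Hochberg over all of them at a threshold of 0.05. Knockdown and each hairpin were fitted with day as a factor, since the labels give each day 1 library of every group, and slopes with group as a factor. The models were run on simulated counts in which libraries were independent and days had no shared effect. That check therefore says nothing about dependence between libraries of a day or of a group. Chain pairs were tested by exact permutation in Python 3.11.15 with numpy 2.4.6. Exon lengths (GENCODE M21) were found for 43 of 43 genes.

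The members and lists were chosen with earlier results of these data known. Named were collagen genes called in a knockdown or hairpin comparison, 15 main chains, the 5 largest rises and falls per day among those called, and the 5 most abundant per length. Of the collagen pathway lists, genes called in knockdown and the 3 largest slopes were named. Alternatives varied the filter, trend, scaling, value for 0 reads, depth, model and libraries.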

Additional observations from a re-analysis of the deposited data

Results flagged for a closer look

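The 4 same-day differences from Nons were examined for 18 named collagen genes with each hairpin, 36 sets in all, of which 4 had 1 day that stood apart from the other 3. Chance alone gives about 1 in 20 such sets. For Col1a2 with Smarcc1.6 the day 4 difference was 1.89, against 3.25, 3.47 and 3.35 on the later days. For Col5a1 with Smarcc1.7 day 6 stood apart with -0.90, against -0.16, -0.17 and -0.03. For Col6a2 with Smarcc1.6 day 4 stood apart with 1.42, against -0.07, -0.04 and 0.11, and with Smarcc1.7 it was day 5 with 0.87, against -0.03, -0.12 and -0.08. No cause was tested for any of these.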

How the results depend on the processing

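Across 27 alternative settings no call of a collagen gene turned its direction. The number called in knockdown, 6 as reported, was 0 without day in the model (no replicate block), 2 with Smarcc1.6 and Nons only, 0 with Smarcc1.7 and Nons only, and 4 to 10 with single days or libraries left out. For Smarcc1.6 (6 as reported) it was 0 without the replicate block and 2 to 8 with single days or libraries left out. For Smarcc1.7 (4 as reported) it was 2 with genes of a mean log2 CPM of at least 2 only, 2 after thinning to the smallest depth, 0 without the replicate block, and 0 to 8 with single days or libraries left out. For the change per day (19 as reported) it was 8 with the stricter filter, 30 with no filter (19 more collagen genes tested), and 9 to 21 with single days or libraries left out, the lowest without day 7. Over all genes the knockdown count, 1561 as reported, was 4 without the replicate block. It was 57 with Smarcc1.6 and Nons only, 0 with Smarcc1.7 and Nons only, and 287 to 2003 with single days or libraries left out. For Smarcc1.6 and Smarcc1.7 the left-out counts over all genes ran from 178 to 1694 and from 1 to 1052. The cause of these changes was not tested, beyond fewer or more genes and libraries entering the fit. Counts of collagen genes between the hairpins and for the interaction stayed at 0 in all settings that gave a value. Over all genes, 2 were called between the hairpins with no filter. The median knockdown difference ran from -0.14 to 0.15 for fibrillar, -0.75 to -0.23 for basement membrane and 0.14 to 0.36 for other genes. After thinning to the smallest depth Col22a1 (26 to 202 reads a library) was still called, with 1.03 (adjusted p = 0.0277). Leaving out a day in the chain pairs leaves 27 arrangements and a smallest p of 0.0370, and no pair passed after adjustment (0.0926 to 0.139 for Col1a1 with Col1a2 and the 3 type V pairs), so that these fits say nothing about stability.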

Other observations

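Several collagen genes lie side by side in pairs on the chromosome, and the members of a pair did not always share a level. Col4a1 and Col4a2 (chromosome 8) are head to head with 22 bases in common, and both were abundant. Col4a6 and Col4a5 (chromosome X) are head to head with 1308 bases between them, and both were highest on day 7. Col4a4 and Col4a3 (chromosome 1), head to head with 71 bases between them, had at most 2 and 5 reads in any library of days 4 to 7. Col3a1 and Col5a2 (chromosome 1) are tail to tail, 24614 bases apart, with a mean log2 CPM over days 4 to 7 of -1.18 and 2.09. Col6a5 and Col6a4 (chromosome 9), on the same strand with 28810 bases between them, both fell per day.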
